A study of Mus musculus with 32 samples.

Results

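Cytochrome P450 enzymes of families 1 to 3 were followed in mouse liver across a Western diet and exposure to E171, the food-grade titanium dioxide used as a white colourant. The members are all non-control probes on the array whose gene name begins with Cyp, a family number from 1 to 3, a subfamily letter and a further number. The rule used no measured value and found 80 probes of 60 genes among 56605 non-control probes. Of these, 67 probes passed the filter on dim probes and 53 genes were tested, beside 23633 tested genes in all. All animals were male F1 C57BL/6J mice killed at 21 weeks of age, in 4 groups of 8: Western diet with E171, Western diet control, normal diet with E171 and normal diet control. E171 was mixed into the food, aiming at a daily dose of 10 mg/kg body weight. Exposure began in the F0 mothers, 40 days before they were mated, and their offspring stayed on it throughout life. The Western diet, called a high-fat diet in the treatment protocol, began at 5 weeks of age and lasted 16 weeks. Each test counts the 8 mice of a group as separate animals. Which of them were littermates is not given.

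P450 enzymes are haem proteins of the endoplasmic reticulum that oxidise drugs, pollutants, steroids, fatty acids and other lipids, with electrons passed on by P450 oxidoreductase. Many are switched on by sensors of foreign or internal chemicals: the aryl hydrocarbon receptor for family 1, the receptor CAR mainly for Cyp2b and several Cyp2c genes, and the receptor PXR mainly for Cyp3a. In the mouse liver many are also sex-biased, because the pulsatile growth hormone of males and the steadier growth hormone of females act differently through STAT5b.

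Each level below is the log2 of a probe's processed fluorescence minus the 75th percentile of its array, so that 0 marks that percentile and a difference of 1 is a 2-fold change. Levels were compared between groups within a probe and never between probes. The probe with the highest mean stands for its gene. A difference is a group mean minus another on this log2 scale, with its standard error (SE), and the adjusted p comes from limma over all 23633 genes. A change is called where the adjusted p is under 0.05. A probe entered the test if it was well above background on at least 6 of 8 arrays of at least 1 group, so a gene that entered only through the group where it is high had to differ.

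The arrays had 32163 to 37261 probes well above background and 0 saturated probes, and each of the 4 slides held 2 mice of every group. Hepatocyte markers averaged a median log2 level of 8.93 in Western-diet E171 mice and 9.03 in Western-diet control mice, against 9.45 in normal-diet E171 mice and 9.42 in normal-diet control mice, so the tissue carried its defining markers throughout. Of 8 hepatocyte markers, 6 fell with the Western diet in E171 mice and 7 in control mice. Of 5 markers of lipid-associated macrophages, 4 were higher in each, and so were 4 of 5 stellate cell markers and 4 of 6 Kupffer cell and macrophage markers. Of all tested genes, 22.2% were higher and 31% lower in E171 mice, and 18.5% were higher and 28.7% lower in control mice. Gpnmb, a lipid-associated macrophage marker, was not well above background on any normal-diet array. In whole liver, fewer cells of a type and less RNA per cell cannot be told apart, and the part of these markers in the P450 results was not tested.

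The Cyp2b probes are shown because the results below turn on which transcript each one reads, and 2 probes for Cyp2b10 gave different patterns. Positions are those of the file headers, mouse build mm9, and all sequences run 5′ to 3′. Capitals mark the longest stretch that the first Cyp2b10 probe and the Cyp2b9 probe share, 10 bases at the end of one and the start of the other.
Cyp2b10 first probe, chr7:26711522-26711581 (+ strand): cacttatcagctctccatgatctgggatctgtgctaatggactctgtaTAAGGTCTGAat
Cyp2b10 second probe, chr7:26702056-26702115 (+ strand): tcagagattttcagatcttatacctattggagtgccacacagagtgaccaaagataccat
Cyp2b9 probe, chr7:26995607-26995666 (+ strand): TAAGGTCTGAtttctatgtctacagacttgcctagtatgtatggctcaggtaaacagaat
Cyp2b13 probe, chr7:26880905-26880964 (+ strand): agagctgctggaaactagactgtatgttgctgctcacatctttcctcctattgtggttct

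In their best ungapped alignment the first Cyp2b10 probe and the Cyp2b9 probe match at 19 of 56 bases. Which transcripts each probe can bind was not checked against a genome of this build.

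Some other P450 probes are near copies, and these pairs cannot be read as independent genes. Of 3135 pairs of probes for different members, 2 match at 40 bases or more of 60: Cyp2c67 with Cyp2c68, at 55 of 59 overlapping bases, and Cyp3a25 with Cyp3a57, at 49 of 52. Probes on neighbouring stretches of similar transcripts are not found this way, so the other pairs were not shown to be independent. Capitals mark the bases that differ within each pair.
Cyp2c67 probe, chr19:39683429-39683488 (- strand): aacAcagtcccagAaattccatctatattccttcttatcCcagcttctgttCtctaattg
Cyp2c68 probe, chr19:39763420-39763479 (- strand): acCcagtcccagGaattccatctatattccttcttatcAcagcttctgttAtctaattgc
Cyp3a25 probe, chr5:146789175-146789234 (- strand): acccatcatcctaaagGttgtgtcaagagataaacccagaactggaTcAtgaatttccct
Cyp3a57 probe, chr5:146151322-146151381 (+ strand): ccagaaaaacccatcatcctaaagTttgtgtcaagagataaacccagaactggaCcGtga

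The probes of 3 Cyp2c genes are shown because they had the smallest unadjusted p for E171 on the Western diet among the probes that stand for genes. Capitals mark a stretch of 12 bases that the Cyp2c37 and Cyp2c50 probes share, at the end of one and the start of the other. Whether these probes read separate transcripts was not tested, so they cannot be taken as 3 independent genes.
Cyp2c37 probe, chr19:40086399-40086458 (+ strand): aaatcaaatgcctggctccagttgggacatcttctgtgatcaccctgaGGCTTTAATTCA
Cyp2c50 probe, chr19:40188154-40188213 (+ strand): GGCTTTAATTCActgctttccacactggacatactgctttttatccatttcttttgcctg
Cyp2c54 probe, chr19:40112528-40112587 (- strand): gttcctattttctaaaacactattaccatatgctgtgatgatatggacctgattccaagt

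The Western diet changed most of these P450 genes, and it split them by subfamily. In E171 mice, 13 of 53 genes were higher and 22 lower, against 22.2% and 31% of all tested genes. In control mice, 15 of 53 were higher and 28 lower, against 18.5% and 28.7% of all tested genes. The share of P450 genes called in either direction was thus 66% in E171 mice, where 53.2% of all genes were called, and 81.1% in control mice, where 47.3% were. The median difference over the 53 genes was -0.19 in E171 mice and -0.27 in control mice, beside -0.10 over all genes in both. In E171 mice the diets did not overlap for 4 genes that were higher and 10 that were lower, beside 9.12% and 8.88% of all genes. In control mice this held for 1 gene that was higher and 6 that were lower, beside 4.59% and 5.37% of all genes. The subfamily counts below stand beside 22.2% of all genes called higher and 31% lower in E171 mice, and 18.5% higher and 28.7% lower in control mice.

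In control mice 39.2% of all called genes were higher with normalization to the 75th percentile, and 54.5% in the authors' deposited table, while the P450 share was 34.9% and 39.5%. Cyp2a and Cyp3a genes were higher, and most Cyp2c and Cyp2d genes lower, under each of these. Among called genes, 27 of 35 in E171 mice and 35 of 43 in control mice kept their call under every alternative run. Cyp2b13 and Cyp2c53-ps kept theirs wherever they were tested, but they were not tested when only probes above background on all 32 arrays entered. Cyp2b13 was the 1 called gene in each comparison that passed the filter only through the diet on which it was higher, so its call is no support for the counts. The exceptions in E171 mice were Cyp2b10, Cyp2c54, Cyp2d11, Cyp2d12, Cyp2d40 and Cyp2j8, and those in control mice were Cyp2a12, Cyp2c70, Cyp2e1, Cyp2j5, Cyp2j8 and Cyp2r1.

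**Figure D1:**
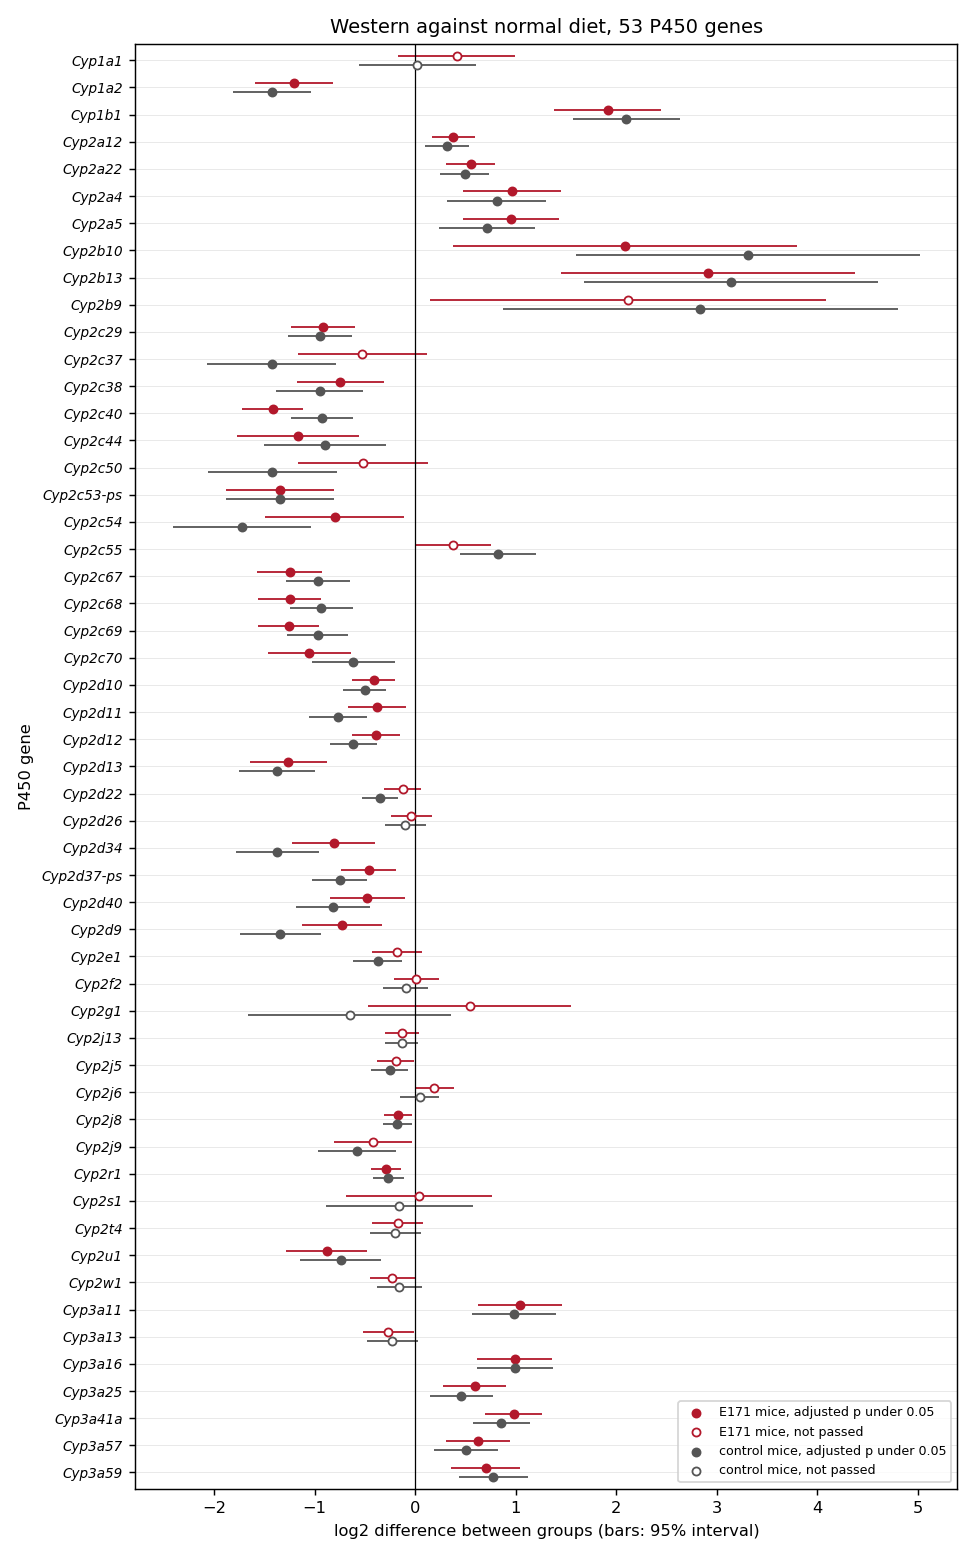
Differences between the Western and the normal diet (x axis, log2, with 95% intervals) for the 53 tested P450 genes (y axis), in E171 mice (red) and control mice (grey). Filled points passed an adjusted p of 0.05. Cyp2b genes and Cyp1b1 lie farthest to the right with wide intervals for Cyp2b, all 4 Cyp2a genes and 6 of 7 Cyp3a genes lie right of 0, and nearly all Cyp2c and Cyp2d genes lie left of it.

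Family 1 moved in opposite directions. Cyp1a2, a hepatocyte enzyme that oxidises caffeine and aromatic amines, had log2 levels of 0.93, 1.95 and 2.41 (lowest, median and highest of 8 mice) in Western-diet E171 mice and 0.72, 1.88 and 2.43 in Western-diet control mice, against 2.87, 2.99 and 3.21 in normal-diet E171 mice and 2.91, 3.17 and 3.46 in normal-diet control mice. No Western-diet mouse reached the level of any normal-diet mouse. Cyp1a2 fell by 1.21 in E171 mice (SE 0.19, adjusted p = 4.78e-06) and fell by 1.42 in control mice (SE 0.19, adjusted p = 5.03e-07).

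Cyp1b1, which oxidises oestradiol and polycyclic hydrocarbons and is found largely outside hepatocytes, showed the reverse. Its log2 levels were -2.69, -1.37 and -0.83 in Western-diet E171 mice and -1.74, -1.38 and -0.17 in Western-diet control mice, against -4.37, -3.18 and -2.76 in normal-diet E171 mice and -4.11, -3.41 and -2.60 in normal-diet control mice. The diets did not overlap within E171 mice or within control mice. The rise of Cyp1b1 was 1.92 in E171 mice (SE 0.26, adjusted p = 4.39e-07) and 2.10 in control mice (SE 0.26, adjusted p = 1.26e-07). With normexp background correction it was 0.78 in E171 mice and 0.90 in control mice, and it passed in both. Stellate cell markers averaged a median log2 level of 2.21 in Western-diet E171 mice and 2.15 in Western-diet control mice. On the normal diet they were at 1.06 in E171 mice and 0.92 in control mice. Lipid-associated macrophage markers were at 2.48 and 2.73 on the Western diet, against -0.75 and -0.72, in the same order. Of 4 endothelial markers, 1 was higher and 1 lower in each diet comparison. Which cells carried the Cyp1b1 signal was not tested.

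Cyp1a1, the most inducible target of the aryl hydrocarbon receptor, did not pass. Its diet difference was 0.41 in E171 mice (adjusted p = 0.22) and 0.02 in control mice (adjusted p = 0.952), with median levels of -4.06 in Western-diet E171 mice, -4.60 in Western-diet control mice, -4.52 in normal-diet E171 mice and -4.66 in normal-diet control mice. Of 4 tested targets of that receptor outside the P450 genes, only Nqo1, a quinone reductase, passed in either diet comparison. That is 25% higher, beside 22.2% of all genes higher in E171 mice and 18.5% in control mice. Nqo1 was higher by 1.63 in E171 mice (adjusted p = 2.59e-09) and by 1.81 in control mice (adjusted p = 5.04e-10).

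All 4 tested Cyp2a genes were higher on the Western diet in both comparisons. Cyp2a5, which oxidises coumarin and nicotine, had log2 levels of 6.39, 7.21 and 7.38 in Western-diet E171 mice and 5.93, 6.74 and 7.66 in Western-diet control mice, against 5.54, 6.06 and 6.61 in normal-diet E171 mice and 5.39, 5.87 and 6.84 in normal-diet control mice. These ranges overlap. Cyp2a5 rose by 0.95 in E171 mice (SE 0.23, adjusted p = 0.00108) and by 0.72 in control mice (SE 0.23, adjusted p = 0.0123). Its neighbour Cyp2a4, a female-biased steroid hydroxylase, rose by 0.96 in E171 mice (SE 0.24, adjusted p = 0.00132) and by 0.81 in control mice (SE 0.24, adjusted p = 0.0065). Cyp2a12 and Cyp2a22 rose by 0.38 and 0.55 in E171 mice, and by 0.32 and 0.49 in control mice. With only the control groups in the fit Cyp2a12 no longer passed.

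The Cyp2b genes had the largest diet differences and by far the widest spread between mice. Cyp2b9, a female-biased enzyme that CAR can also induce, had log2 levels of 0.22, 2.36 and 4.37 in Western-diet E171 mice and -1.92, 1.47 and 3.84 in Western-diet control mice, against -3.11, 0.02 and 2.23 in normal-diet E171 mice and -4.67, -2.38 and 1.91 in normal-diet control mice. Every group overlapped every other. In Western-diet control mice the Cyp2b9 values fell apart, with 3.84, 3.68, 3.05 and 2.96 in 4 mice and -0.03, -0.73, -1.58 and -1.92 in the others. The diet difference of Cyp2b9 was 2.12 in E171 mice, which did not pass (SE 0.96, adjusted p = 0.0641), and 2.84 in control mice, which did (SE 0.96, adjusted p = 0.0163). Within single slides it ran from -0.29 to 3.50 in E171 mice and from 0.16 to 7.67 in control mice.

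Cyp2b13, a close relative of Cyp2b9 and also female-biased, was well above background on every Western-diet array, on 5 of 8 arrays of normal-diet E171 mice and on 3 of 8 of normal-diet control mice. Its log2 levels were -3.56, -1.69 and -0.02 in Western-diet E171 mice and -4.78, -2.10 and -0.59 in Western-diet control mice, against -7.30, -4.72 and -2.46 in normal-diet E171 mice and -7.36, -6.05 and -3.42 in normal-diet control mice. It entered the test only through the Western-diet groups, where it was higher, so its passing is a description. Cyp2b13 differed by 2.91 in E171 mice (SE 0.72, adjusted p = 0.00115) and by 3.14 in control mice (SE 0.72, adjusted p = 0.000668), values that rest in part on arrays where the probe was not above background. With normexp they were 0.90 in E171 mice and 0.75 in control mice. Within slides the difference ran from 0.78 to 3.95 in E171 mice and from 1.42 to 6.47 in control mice.

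The first probe of Cyp2b10, the classic CAR target of the mouse, followed the same course. Its log2 levels were 0.06, 2.01 and 4.03 in Western-diet E171 mice and -1.0, 1.76 and 3.52 in Western-diet control mice, against -3.33, -0.30 and 1.95 in normal-diet E171 mice and -4.03, -2.59 and 1.49 in normal-diet control mice. Cyp2b10 by this probe was higher by 2.09 in E171 mice (SE 0.84, adjusted p = 0.0363), a call that was lost without Western-diet E171 mouse 3 and with no filter on dim probes, and by 3.31 in control mice (SE 0.84, adjusted p = 0.00179).

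The second Cyp2b10 probe gave another pattern. It was well above background on 1 of 8 arrays of Western-diet E171 mice and 7 of 8 of Western-diet control mice, and on 0 of 8 in each normal-diet group. Its log2 levels were -7.26, -6.52 and -4.87 in Western-diet E171 mice and -6.73, -4.72 and -3.0 in Western-diet control mice, with normal-diet means of -7.28 ± 0.18 for E171 and -7.31 ± 0.14 for control mice (SD, n = 8 each). The probe entered the test only through Western-diet control mice, so its diet call in control mice was in part built into its selection. With the processed fluorescence, Cyp2b10 by this probe was at least 1.44-fold higher on the Western diet in control mice. That is a bound against the dimmest signal called well above background on each array. The measured difference there passed (adjusted p = 2.98e-07 over 35777 kept probes, of which 17.3% were called higher). In E171 mice the measured means were -6.22 ± 0.87 on the Western and -7.28 ± 0.18 on the normal diet (adjusted p = 0.0109, where 20.6% of kept probes were called higher), and the bound is under 1, so no fold is given. With normexp background correction neither diet difference of this probe passed, at -0.03 in E171 mice (adjusted p = 0.768) and 0.15 in control mice (adjusted p = 0.141). In the authors' deposited table the E171 mice gave 0.23 (adjusted p = 0.175) and the control mice 0.72 (adjusted p = 9.2e-05).

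The second Cyp2b10 probe was also the only P450 probe that passed for E171. It entered the test only through Western-diet control mice, the group where it was highest, so the difference was in part built into its selection. Most Western-diet E171 arrays give only background for it, and the value below is a measured difference and no fold. On the Western diet it was lower in E171 mice than in control mice by a difference of -1.57 (SE 0.34, adjusted p = 0.033 over 35777 probes), where 0.159% of all kept probes were called lower. The groups overlapped, and the difference was -1.78 to -1.45 on the 4 slides. The call was lost with normexp background correction (-0.16, adjusted p = 0.486), in the authors' deposited table (-0.52, adjusted p = 0.072) and without Western-diet control mouse 3 (-1.34, adjusted p = 0.083). The test of whether this E171 difference itself differed between diets gave -1.60 and did not pass (adjusted p = 0.9). By the first probe the same comparison gave a difference of 0.38 (SE 0.84, adjusted p = 0.908).

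Across the 8 Western-diet E171 mice the first Cyp2b10 probe followed the Cyp2b9 probe closely. Pearson's r was 0.999 and Spearman's rho 1 (exact permutation p = 2.48e-05 for r, the smallest possible here, and 9.92e-05 adjusted over 4 relations), and r was 0.998 without the 2 mice farthest from the median of the first Cyp2b10 probe. The second Cyp2b10 probe had r = -0.23 and rho = -0.40 with the first (exact permutation p = 0.566 and 0.327, adjusted 0.726 and 0.436), and r = -0.04 without the 2 farthest mice. The second probe was well above background on 1 of these 8 arrays, so its values cannot show whether it follows the first. These relations were computed after the levels had been seen. In Western-diet control mice the values fell into separate sets, so a pooled r is not read as a relation there. Over all 8 of them the first Cyp2b10 probe had r = 0.993 and rho = 0.976 with the Cyp2b9 probe. With the second Cyp2b10 probe, well above background on 7 of 8 of these arrays, it had r = 0.15 and rho = -0.02 (exact permutation p = 0.726 and 0.977, adjusted the same). Without the 2 farthest mice that r was -0.74.

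**Figure D2:**
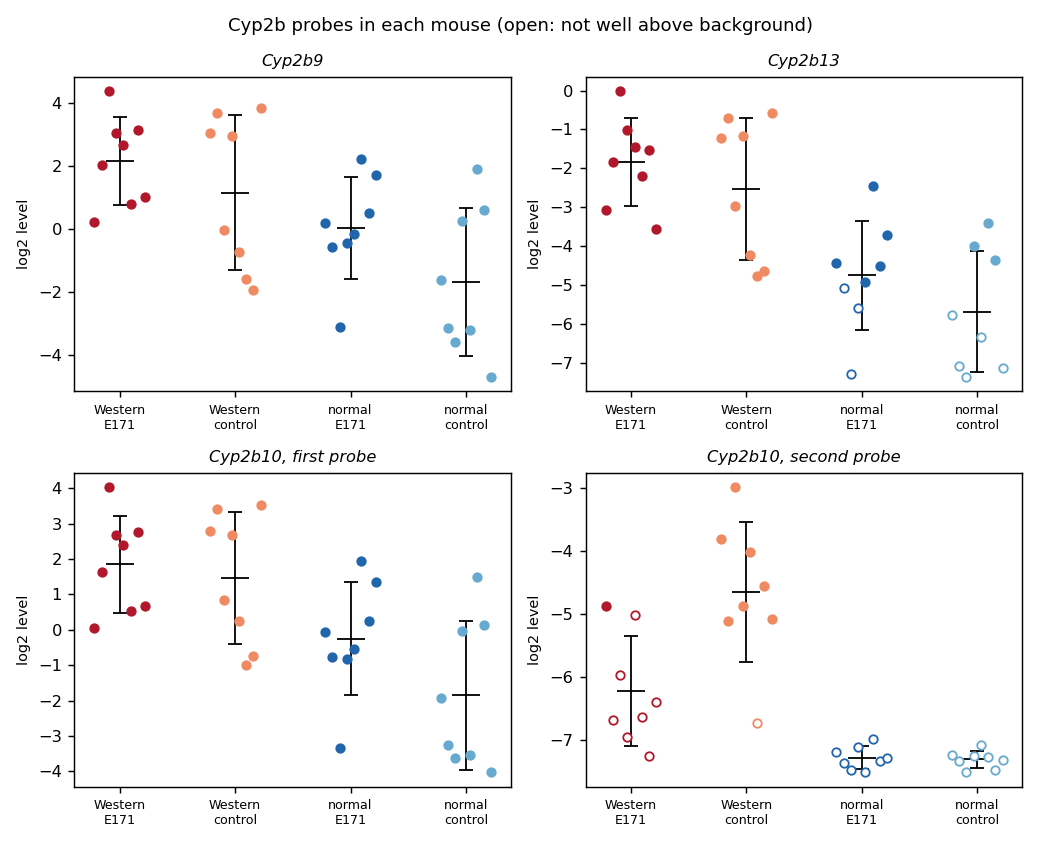
Log2 levels (y axis) of the Cyp2b9 and Cyp2b13 probes and of both Cyp2b10 probes in each mouse, by group (x axis), with mean and SD in black and open points where the probe was not well above background. Western-diet mice lie higher with broad overlap for Cyp2b9, Cyp2b13 and the first Cyp2b10 probe, while for the second Cyp2b10 probe 7 of 8 Western-diet control mice and 1 of 8 Western-diet E171 mice are filled.

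**Figure D3:**
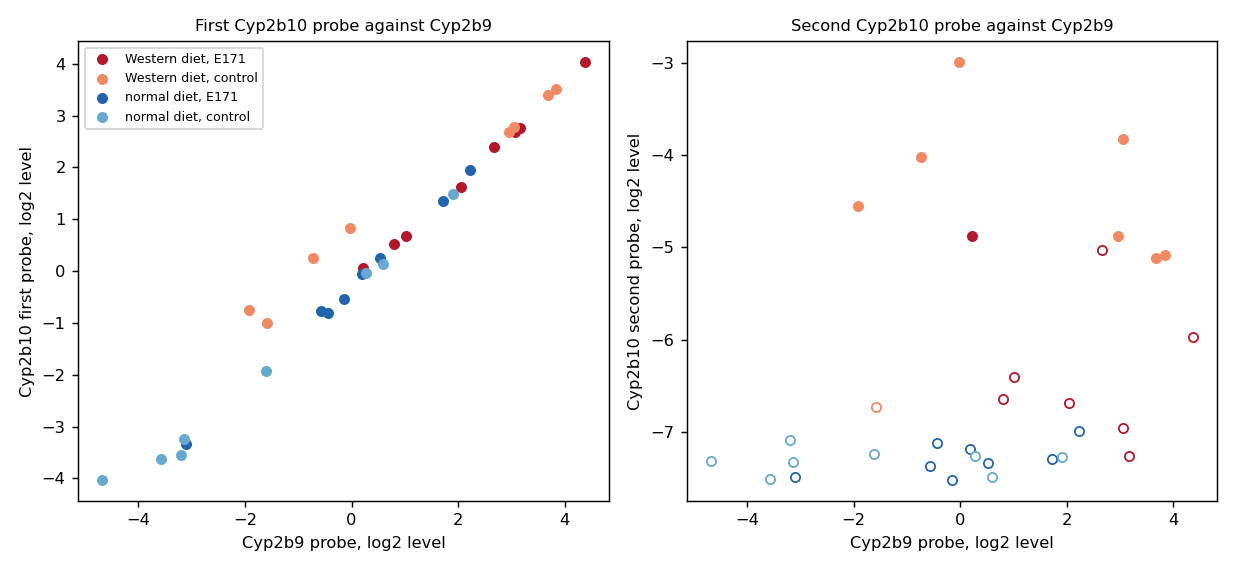
Log2 level of the first (left) and second (right) Cyp2b10 probe (y axes) against that of the Cyp2b9 probe (x axes), 1 point per mouse in 4 group colours, open where not well above background. On the left, Western-diet E171 mice lie on 1 line (r 0.999), and the 4 Western-diet control mice with the lowest Cyp2b9 levels lie above the trend of the other mice; on the right there is no such line.

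The start regions of these genes from RefSeq (build GRCm38.p6, 250 bases before to 50 after the annotated start) are shown because those of Cyp2b9 and Cyp2b13 are nearly identical. Such an entry was found for 50 of the 60 members. Cyp2b9 and Cyp2b13 match at 298 of 300 bases, the capitals marking those that differ, while Cyp2b9 and Cyp2b10 match at 147 of 299 without gaps and at 223 of 289 aligned bases in a global alignment with gaps.
Cyp2b9 promoter, chr7:26173159-26173458 (+ strand): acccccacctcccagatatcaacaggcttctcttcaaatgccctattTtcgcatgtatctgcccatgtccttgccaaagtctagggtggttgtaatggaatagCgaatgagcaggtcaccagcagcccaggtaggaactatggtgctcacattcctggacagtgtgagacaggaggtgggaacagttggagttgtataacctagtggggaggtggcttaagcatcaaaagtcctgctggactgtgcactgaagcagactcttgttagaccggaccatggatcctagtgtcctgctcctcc
Cyp2b13 promoter, chr7:26061245-26061544 (+ strand): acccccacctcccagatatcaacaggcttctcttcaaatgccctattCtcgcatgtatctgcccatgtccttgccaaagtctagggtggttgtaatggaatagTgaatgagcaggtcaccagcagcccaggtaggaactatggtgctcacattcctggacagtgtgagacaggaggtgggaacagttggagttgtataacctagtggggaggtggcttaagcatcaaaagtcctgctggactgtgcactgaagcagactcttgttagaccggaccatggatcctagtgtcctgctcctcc
Cyp2b10 promoter, chr7:25897408-25897707 (+ strand): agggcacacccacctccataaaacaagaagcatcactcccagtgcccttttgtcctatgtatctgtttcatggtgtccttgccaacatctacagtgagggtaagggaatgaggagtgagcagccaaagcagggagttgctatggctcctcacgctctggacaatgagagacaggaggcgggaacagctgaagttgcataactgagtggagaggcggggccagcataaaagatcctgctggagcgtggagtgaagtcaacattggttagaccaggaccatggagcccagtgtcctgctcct

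The Cyp2c subfamily, enzymes of arachidonic acid, retinoids, steroids and drugs, was mostly lower on the Western diet. In E171 mice 10 of 13 tested genes were lower and 0 higher, with a median difference of -1.05, and in control mice 12 were lower and 1 higher, with a median of -0.95. These genes fall into sets that differed in how much mice varied.

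Cyp2c37, Cyp2c50 and Cyp2c54, epoxygenases that CAR can induce, were spread widely in Western-diet control mice. Cyp2c54 had log2 levels of 4.62, 5.95 and 6.67 in Western-diet E171 mice and 2.80, 4.89 and 6.69 in Western-diet control mice, against 6.24, 6.71 and 6.94 in normal-diet E171 mice and 6.33, 6.54 and 7.11 in normal-diet control mice. Most Western-diet mice lay below the normal-diet range, with the lowest value in Western-diet control mouse 3. Cyp2c54 fell by 0.80 in E171 mice (SE 0.34, adjusted p = 0.0471), a call lost under 5 alternatives including the removal of Western-diet E171 mouse 3, and fell by 1.72 in control mice (SE 0.34, adjusted p = 0.00012). Cyp2c37 gave -0.52 in E171 mice, which did not pass (adjusted p = 0.161), and fell by 1.43 in control mice (SE 0.32, adjusted p = 0.000477). Cyp2c50 gave -0.52 in E171 mice (adjusted p = 0.168) and fell by 1.42 in control mice (SE 0.32, adjusted p = 0.000513). The values of Cyp2c37 and Cyp2c50 were thus nearly the same, and whether their probes read separate transcripts was not tested.

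A second set was lower with little spread. Cyp2c40, an arachidonic acid oxidase listed as female-biased, had log2 levels of 2.80, 3.32 and 3.68 in Western-diet E171 mice and 3.40, 3.54 and 4.0 in Western-diet control mice, against 4.08, 4.75 and 5.04 in normal-diet E171 mice and 3.75, 4.61 and 5.06 in normal-diet control mice. E171 mice of the diets did not overlap, while control mice did. Cyp2c40 fell by 1.42 in E171 mice (SE 0.15, adjusted p = 7.24e-09) and fell by 0.92 in control mice (SE 0.15, adjusted p = 1.04e-05). Cyp2c69 fell by 1.26 in E171 mice and by 0.97 in control mice (SE 0.15 in each), and Cyp2c67 fell by 1.25 and by 0.97 (SE 0.16 in each) in the same order. Cyp2c68, whose probe nearly copies that of Cyp2c67, fell by 1.25 in E171 mice and by 0.93 in control mice. In E171 mice none of these 4 genes overlapped between diets. The values of Cyp2c67, Cyp2c68 and Cyp2c69 were nearly the same. Whether their probes read separate transcripts was not tested, so they cannot be taken as independent genes.

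Of the other Cyp2c genes, Cyp2c29, an abundant CAR-responsive epoxygenase, fell by 0.92 in E171 mice (SE 0.16, adjusted p = 1.44e-05) and by 0.95 in control mice (SE 0.16, adjusted p = 1.11e-05), without overlap between diets in either. Cyp2c70, which makes the muricholic acids of rodent bile, fell by 1.05 in E171 mice (SE 0.20, adjusted p = 7.45e-05) and by 0.61 in control mice (SE 0.20, adjusted p = 0.0137), the second call being lost with quantile normalization and in the deposited table. Cyp2c44, an epoxygenase that RefSeq lists as Cyp2c23, fell by 1.16 in E171 mice and by 0.89 in control mice (SE 0.30 in each). Cyp2c38 fell by 0.74 and the pseudogene Cyp2c53-ps by 1.34 in E171 mice, and in control mice Cyp2c38 fell by 0.95 and Cyp2c53-ps by 1.34. Cyp2c53-ps was well above background on 7 of 8 arrays of each Western-diet group, and with normexp it gave -0.49 in E171 mice and -0.53 in control mice.

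Cyp2c55, a CAR and PXR target known from the colon, was the exception. Its log2 levels were -1.93, -1.63 and -1.28 in Western-diet E171 mice and -2.46, -1.12 and -0.36 in Western-diet control mice, against -2.29, -1.97 and -1.78 in normal-diet E171 mice and -2.51, -2.04 and -1.47 in normal-diet control mice. Western-diet control mouse 6 was at -2.46 and the other 7 at or above -1.29. Cyp2c55 gave 0.38 in E171 mice, which did not pass (SE 0.18, adjusted p = 0.0829), and rose by 0.83 in control mice (SE 0.18, adjusted p = 0.000537), or by 0.46 with normexp.

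The Cyp2d subfamily, oxidases of many basic drugs and some steroids, moved together. In E171 mice 8 of 10 tested genes were lower and 0 higher, with a median difference of -0.44, and in control mice 9 were lower and 0 higher, with a median of -0.76. Cyp2d9, a male-biased testosterone hydroxylase, had log2 levels of 4.93, 5.73 and 6.61 in Western-diet E171 mice and 4.25, 5.27 and 6.11 in Western-diet control mice, against 6.11, 6.41 and 6.69 in normal-diet E171 mice and 6.18, 6.68 and 6.88 in normal-diet control mice. Control mice of the diets did not overlap, and E171 mice did. Cyp2d9 fell by 0.73 in E171 mice (SE 0.20, adjusted p = 0.0026) and by 1.34 in control mice (SE 0.20, adjusted p = 2.01e-06).

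Cyp2d13 had median log2 levels of 1.90 in Western-diet E171 mice and 1.62 in Western-diet control mice, against 3.24 in normal-diet E171 mice and 3.00 in normal-diet control mice, with no overlap between diets in either comparison. Cyp2d13 fell by 1.26 in E171 mice and by 1.37 in control mice (SE 0.19 in each). Cyp2d34 fell by 0.81 in E171 mice and by 1.37 in control mice (SE 0.20 in each). The highly expressed Cyp2d10, Cyp2d11 and Cyp2d12 fell by 0.41, 0.38 and 0.39 in E171 mice, and by 0.50, 0.76 and 0.62 in control mice. Cyp2d40 fell by 0.47 in E171 mice and by 0.81 in control mice. In E171 mice the calls of Cyp2d11, Cyp2d12 and Cyp2d40 were lost with quantile normalization and in the deposited table, and those of Cyp2d11 and Cyp2d40 also without Western-diet E171 mouse 3. Cyp2d37-ps, a pseudogene, fell by 0.46 in E171 mice and by 0.75 in control mice, and Cyp2d22 gave -0.12 in E171 mice (adjusted p = 0.236) and fell by 0.35 in control mice.

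Cyp2d26 was not called by the probe with the highest mean, at -0.04 in E171 mice and -0.10 in control mice (adjusted p = 0.773 and 0.431 in that order). Its other probe, at chr15:82621770-82621829 against chr15:82620575-82620634 for the first, was lower, at -0.47 in E171 mice (adjusted p = 0.00079) and -0.64 in control mice (adjusted p = 2.19e-05) over all kept probes, of which 30.6% and 27.4% were called lower in the same order. The 2 probes of this gene thus disagreed on the diet.

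Cyp3a enzymes, the main drug oxidases of the liver and intestine, were higher on the Western diet. In each diet comparison 6 of 7 tested genes were higher and 0 lower, with a median difference of 0.70 in E171 mice and 0.78 in control mice. Cyp3a11, the leading PXR target of the mouse liver, had log2 levels of 4.94, 5.74 and 6.30 in Western-diet E171 mice and 5.51, 5.72 and 6.03 in Western-diet control mice, against 4.23, 4.55 and 5.05 in normal-diet E171 mice and 4.10, 4.56 and 5.63 in normal-diet control mice. The diets overlapped slightly in both comparisons. Cyp3a11 rose by 1.04 in E171 mice (SE 0.20, adjusted p = 9.05e-05) and by 0.98 in control mice (SE 0.20, adjusted p = 0.000227).

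Cyp3a41a and Cyp3a16, which are female-biased in adult mouse liver, rose to a similar degree. All mice here were male, and whether these probes also read other Cyp3a transcripts was not checked. Cyp3a41a had log2 levels of 8.10, 8.30 and 8.67 in Western-diet E171 mice and 8.08, 8.41 and 8.70 in Western-diet control mice, against 7.12, 7.32 and 7.66 in normal-diet E171 mice and 7.02, 7.43 and 8.11 in normal-diet control mice. Only control mice of the diets overlapped. Cyp3a41a rose by 0.98 in E171 mice (SE 0.14, adjusted p = 9.04e-07) and by 0.86 in control mice (SE 0.14, adjusted p = 9.46e-06). Cyp3a16 rose by 0.99 in each (SE 0.18). Cyp3a59 rose by 0.70 in E171 mice and by 0.78 in control mice (SE 0.17 in each).

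Cyp3a25 and Cyp3a57, whose probes nearly copy each other, rose less. Cyp3a25 rose by 0.59 in E171 mice (SE 0.15, adjusted p = 0.00166) and by 0.46 in control mice (SE 0.15, adjusted p = 0.0131), and Cyp3a57 by 0.63 in E171 mice and 0.51 in control mice (SE 0.16 in each). Cyp3a13, which is also expressed in the intestine, gave -0.27 in E171 mice (adjusted p = 0.0683) and -0.23 in control mice (adjusted p = 0.136).

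**Figure D4:**
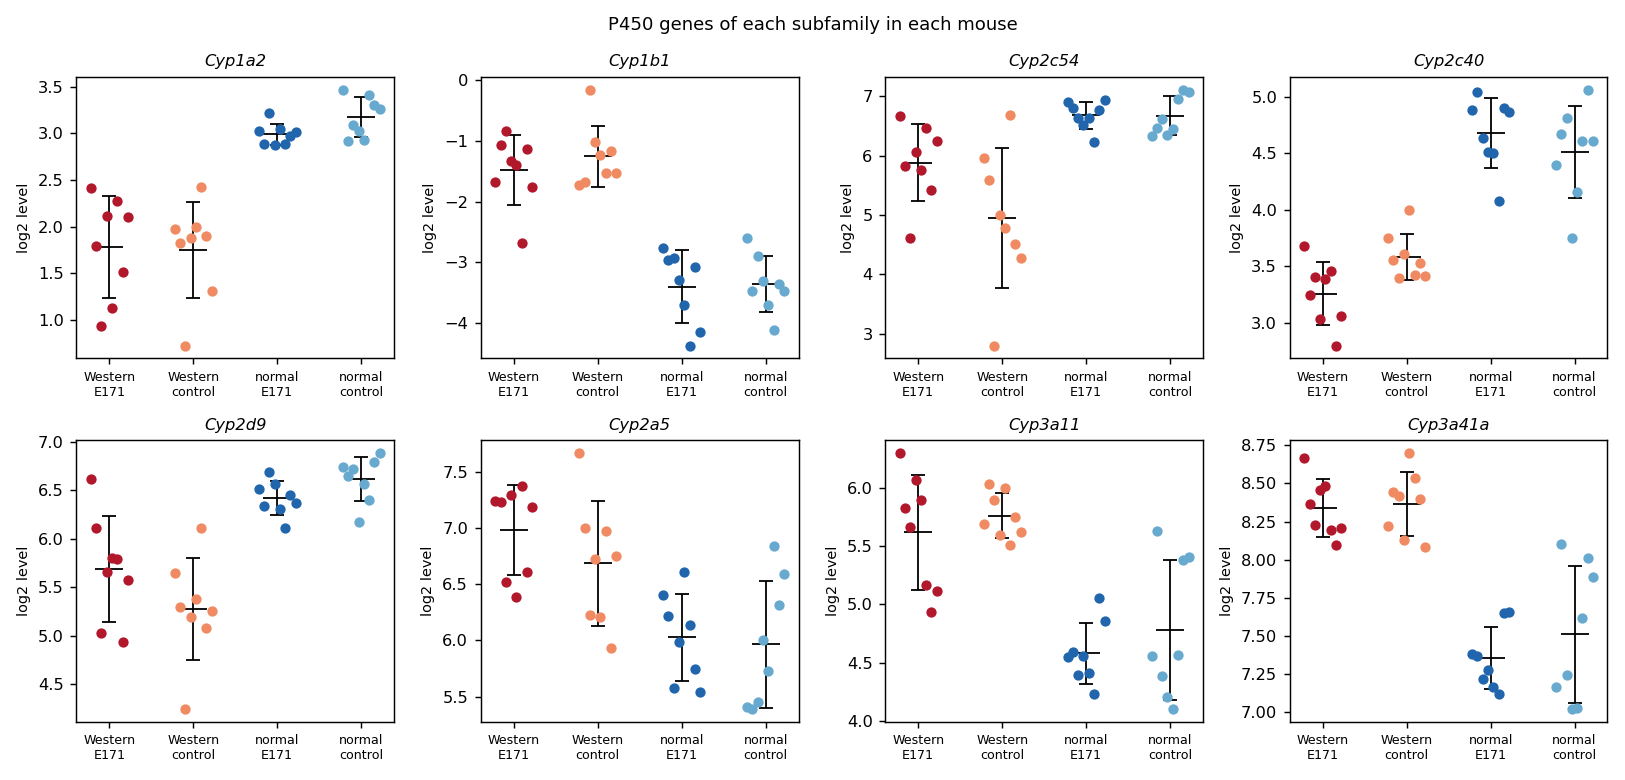
Log2 levels (y axes) of 8 P450 genes in each mouse by group (x axes), with mean and SD in black. Western-diet mice lie lower for Cyp1a2, Cyp2c54, Cyp2c40 and Cyp2d9 and higher for Cyp1b1, Cyp2a5, Cyp3a11 and Cyp3a41a, and E171 and control mice of 1 diet overlap in every panel.

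Promoters of the subfamilies that moved in opposite directions shared a short sequence. CAAAGTCCA, a form of the element bound by the hepatocyte factor HNF4A, was searched on both strands. It stood in promoters of 9 of 50 P450 genes (18%), beside 0.475% of 32851 mouse promoter entries of the same length. The P450 share counts genes with a match in any of their entries, and the other share counts single entries, so the units differ. The genes were Cyp3a11, Cyp3a16 and Cyp3a41a, which were higher in control mice, Cyp2c40, Cyp2c67, Cyp2c68, Cyp2c69 and Cyp2c70, which were lower, and Cyp2c65, which was not tested. Several of these promoters are near copies, Cyp3a16 and Cyp3a41a matching at 280 of 296 bases and Cyp2c40 and Cyp2c69 at 267 of 270, so the genes are not independent cases. A promoter of 2 genes that were higher and of 1 that was lower is printed, with the element in capitals, beginning 109, 95 and 75 bases before the start.
Cyp3a11 promoter, chr5:145879805-145880104 (- strand): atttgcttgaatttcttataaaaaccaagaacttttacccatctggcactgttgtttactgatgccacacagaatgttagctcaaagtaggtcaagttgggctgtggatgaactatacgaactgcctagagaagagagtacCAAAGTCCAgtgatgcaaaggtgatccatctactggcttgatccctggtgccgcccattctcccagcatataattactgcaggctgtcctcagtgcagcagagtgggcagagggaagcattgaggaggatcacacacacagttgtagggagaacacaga
Cyp3a41a promoter, chr5:145720087-145720386 (- strand): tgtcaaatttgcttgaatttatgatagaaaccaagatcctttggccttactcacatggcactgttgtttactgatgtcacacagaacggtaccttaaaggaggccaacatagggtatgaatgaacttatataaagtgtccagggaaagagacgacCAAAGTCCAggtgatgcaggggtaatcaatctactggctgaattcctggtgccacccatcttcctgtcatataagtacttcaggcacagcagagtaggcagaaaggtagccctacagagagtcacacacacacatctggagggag
Cyp2c69 promoter, chr19:39886720-39887019 (- strand): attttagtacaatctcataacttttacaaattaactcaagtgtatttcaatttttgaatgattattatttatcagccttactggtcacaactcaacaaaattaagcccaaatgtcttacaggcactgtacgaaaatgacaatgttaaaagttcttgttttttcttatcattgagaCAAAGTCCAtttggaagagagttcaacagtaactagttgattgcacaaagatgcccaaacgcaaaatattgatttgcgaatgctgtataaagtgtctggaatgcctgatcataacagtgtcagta

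Other motifs were searched in the same way, again on both strands, and counted per gene for the P450s and per entry for all. TATAAA, a common element of start regions, stood in 54% of the P450 promoters and 13.6% of all.

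GCGTG, the core of the element bound by the aryl hydrocarbon receptor, stood in 16% of the P450 promoters, those of Cyp1a1 and Cyp1b1 among them, and in 32.4% of all. TTCNNNGAA, the STAT-type element, stood in 2% of the P450 promoters and 8.3% of all. A match is a string of letters, and none of these searches shows binding.

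Read by sex bias rather than by subfamily, the genes did not move one way. The counts in this and the next lists stand beside 22.2% of all genes higher and 31% lower in E171 mice, and 18.5% higher and 28.7% lower in control mice. Of 7 tested P450 genes listed as female-biased, 4 were higher and 2 lower in E171 mice, and 5 were higher and 2 lower in control mice, with medians of 0.98 and 0.86 in the same order. Cyp2c40 and Cyp2c69 were the lower ones in both. Which transcripts the probes of the listed genes read in these male mice was not checked. The listed male-biased genes, Cyp2d9 and Cyp2u1, were lower in both comparisons. Of 8 tested sex-biased liver genes outside P450 families 1 to 3, 6 were lower and 0 higher in each, led by Hsd3b5, a steroid dehydrogenase of the male liver, at -6.67 in E171 mice and -6.86 in control mice. Of 10 tested growth hormone and sex-bias regulators, Ghr, Stat5a, Stat5b and Igf1 were lower in both comparisons, and Trim24 was higher in E171 mice. Ghr, the growth hormone receptor, fell by 0.42 in E171 mice and by 0.51 in control mice, and Stat5b by 0.29 and by 0.26.

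Mice with less Cyp2d9 were not shown to have more of the female-biased P450s. In Western-diet E171 mice, Cyp2d9 and Cyp2b9 had r = -0.75 and rho = -0.71 (exact permutation p = 0.0316 and 0.0576, adjusted over 6 relations 0.0949 and 0.173), with r = -0.61 without the 2 mice farthest from the median of Cyp2d9. Cyp2d9 and Cyp3a41a had r = 0.81 and rho = 0.74 (exact permutation p = 0.0144 and 0.0458, adjusted 0.0866 and 0.173), with r = 0.42 without those 2 mice. Cyp2d9 and Cyp2b13 had r = -0.56 and rho = -0.36 (exact permutation p = 0.144 and 0.389, adjusted 0.289 and 0.584), with r = -0.47 without them. In Western-diet control mice Cyp2b9 fell into separate sets, so a pooled relation to Cyp2d9 is not read from it. The values computed over all 8 mice were r = -0.02 and rho = 0.05 for Cyp2b9 (exact permutation p = 0.97 and 0.935, adjusted p the same) and r = -0.12 and rho = -0.19 for Cyp2b13 (exact permutation p = 0.772 and 0.665, adjusted 0.959 and 0.797). Without the 2 farthest mice r was 0.33 for Cyp2b9 and 0.28 for Cyp2b13, of the other sign. Cyp2d9 against Cyp3a41a in these mice gave r = 0.12 and rho = 0.38 (exact permutation p = 0.8 and 0.36, adjusted 0.959 and 0.584), with r = 0.05 without the 2 farthest mice.

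Read by inducing receptor, 12 tested CAR and PXR type P450 genes were also divided. In E171 mice 5 were higher and 2 lower, with a median of 0.49, and in control mice 7 were higher and 4 lower, with a median of 0.59, the lower ones there being Cyp2c29, Cyp2c37, Cyp2c50 and Cyp2c54. Of 9 tested CAR and PXR targets outside the P450s, 7 were higher and 1 lower in E171 mice, and 6 were higher and 1 lower in control mice. Abcb1a, a drug exporter, rose by 1.75 in E171 mice and by 1.69 in control mice (SE 0.23 in each), and Gadd45b, a stress-responsive CAR target, by 1.15 and by 1.12. Ces2a, a carboxylesterase, was the lower one, at -0.95 in E171 mice and -1.02 in control mice.

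Of 8 tested sensors and partner receptors, 1 was higher and 2 lower in E171 mice, and 0 were higher and 3 lower in control mice, which is a smaller share in all than the 53.2% and 47.3% of all genes called, in the same order. Rxra, the partner of CAR and PXR, fell by 0.32 in E171 mice and by 0.26 in control mice, and Hnf4a, a main hepatocyte factor, by 0.60 and by 0.49. Ahr, Nr1i2, which encodes PXR, and Nr1i3, which encodes CAR, did not pass in either diet comparison, and Nr1i3 gave 0.07 in E171 mice and -0.41 in control mice (adjusted p = 0.747 and 0.0575 in that order).

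Among 14 genes of electron supply and haem synthesis, 3 were higher and 3 lower in E171 mice, and 2 were higher and 4 lower in control mice. These shares, 21.4% higher and 21.4% lower in E171 mice and 14.3% higher and 28.6% lower in control mice, lie at or below those of all genes. Por, the P450 oxidoreductase, had log2 levels of 5.73, 6.13 and 6.77 in Western-diet E171 mice and 5.59, 5.85 and 6.49 in Western-diet control mice, against 4.77, 5.44 and 5.81 in normal-diet E171 mice and 4.71, 5.29 and 5.86 in normal-diet control mice. Por rose by 0.84 in E171 mice (SE 0.18, adjusted p = 0.000262) and by 0.64 in control mice (SE 0.18, adjusted p = 0.00428). Hmox1, which breaks down haem, rose by 0.49 in E171 mice and by 0.66 in control mice, and Ppox, an enzyme of haem synthesis, fell by 0.42 and by 0.46.

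The remaining subfamilies are smaller. Of 5 tested Cyp2j genes, epoxygenases of arachidonic acid, 1 was lower in E171 mice and 3 in control mice, with medians of -0.17 and -0.18 in the same order. These are 20% and 60%, beside 31% and 28.7% of all genes called lower. Cyp2j9 gave -0.42 in E171 mice (adjusted p = 0.0628) and fell by 0.58 in control mice (SE 0.19, adjusted p = 0.0134). Cyp2j5 gave -0.19 in E171 mice (adjusted p = 0.0736) and fell by 0.25 in control mice, and Cyp2j8 fell by 0.17 and by 0.18. The calls of Cyp2j5 and Cyp2j8 were lost under several alternatives, the removal of Western-diet control mouse 3 among them. Cyp2j6 had 2 probes of opposite sign in control mice, 0.05 and -0.03, neither of which passed.

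The second probe of Cyp2j9 is described because it differed from the first in its E171 values, and it was chosen after those had been seen. Its log2 levels were -4.88, -4.46 and -3.54 in Western-diet E171 mice and -5.57, -5.26 and -4.66 in Western-diet control mice, against -4.55, -3.42 and -2.84 in normal-diet E171 mice and -6.04, -4.39 and -3.52 in normal-diet control mice. E171 mice lay higher on both diets, with overlap. The E171 difference of this Cyp2j9 probe was 0.87 on the Western diet (adjusted p = 0.135) and 0.75 on the normal diet (adjusted p = 0.999), and averaged over diets it was 0.81 (SE 0.19, adjusted p = 0.0527 over 35777 probes), which did not pass. It passed in 4 of 12 settings, among them slide as a block and array weights, with adjusted p from 0.0244 to 0.13 and differences from 0.21 to 0.84. By the first probe the averaged E171 difference of Cyp2j9 was 0.25 (adjusted p = 0.503 over the same probes). On the diet the probes had the same sign, the second at -0.65 in E171 mice and -0.78 in control mice.

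Cyp2e1, which oxidises ethanol and small solvents, had median log2 levels of 9.63 in Western-diet E171 mice and 9.42 in Western-diet control mice, against 9.80 in normal-diet E171 mice and 9.71 in normal-diet control mice. Cyp2e1 gave -0.18 in E171 mice (adjusted p = 0.206) and fell by 0.37 in control mice (SE 0.12, adjusted p = 0.0123), the call being lost with quantile normalization and in the deposited table. Cyp2r1, a vitamin D hydroxylase, fell by 0.29 in E171 mice (SE 0.07, adjusted p = 0.0016) and by 0.27 in control mice (SE 0.07, adjusted p = 0.00402), the second call being lost in the deposited table. Cyp2f2, Cyp2g1, Cyp2s1, Cyp2t4 and Cyp2w1 did not pass in either comparison.

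Cyp2u1, a fatty acid hydroxylase listed as male-biased, was read by 3 probes. The first, which stands for the gene, holds a run of 32 bases of GT repeats, shown in capitals beside the second probe.
Cyp2u1 first probe, chr3:130996343-130996402 (- strand): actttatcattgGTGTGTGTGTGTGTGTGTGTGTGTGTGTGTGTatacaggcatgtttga
Cyp2u1 second probe, chr3:131000768-131000827 (- strand): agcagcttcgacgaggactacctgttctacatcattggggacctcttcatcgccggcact

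The first Cyp2u1 probe gave a diet difference of -0.88 in E171 mice (SE 0.20, adjusted p = 0.000423) and -0.74 in control mice (SE 0.20, adjusted p = 0.00278). The second gave -1.43 in E171 mice and -1.41 in control mice, and the third -1.51 and -1.50 in the same order. All 3 were lower on the Western diet, and the repeat-bearing probe had the smallest difference in both comparisons. For E171 on the Western diet the first probe gave -0.38, against 0.17 and 0.18 for the others, and none passed.

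By the probes that stand for genes, no P450 gene passed for E171 on either diet, and E171 and control mice overlapped for all 53 genes on each. On the Western diet 0.144% of all genes were higher and 0.0423% lower without overlap, and on the normal diet 0 of all genes. By limma 0 of 53 passed on the Western diet, beside 0.385% of all genes (91 of 23633), and 12 of 53 had an unadjusted p under 0.05 in limma, 10 higher and 2 lower, beside 2823 of all genes. On the normal diet 0 of 53 passed, as did 0 of all genes, and at an unadjusted p under 0.05 there were 0 P450 genes and 956 of all genes. Averaged over diets 0 of 53 passed, beside 0.372% of all genes, with 4 at an unadjusted p under 0.05, beside 2599 of all genes. The test of whether the E171 difference itself differed between diets passed for 0 of 53 and 0 of all genes, with 2 of 53 and 1222 of all genes at an unadjusted p under 0.05. The diet comparisons above therefore were not shown to differ between E171 and control mice for any member.

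Among the probes that stand for genes, the smallest unadjusted p for E171 on the Western diet were those of Cyp2c54, Cyp2c50 and Cyp2c37. Cyp2b9, at 1.01, and Cyp2g1, at 1.0, differed more, with wider intervals. Cyp2c54 differed by 0.94 between E171 and control mice (95% interval 0.25 to 1.62, adjusted p = 0.226), Cyp2c50 by 0.87 (adjusted p = 0.226) and Cyp2c37 by 0.86 (adjusted p = 0.236). The groups overlapped in all 3, and the wide spread lay in Western-diet control mice. Over the alternatives the adjusted p of Cyp2c54 ran from 0.0743 to 0.427. Cyp2c55 gave -0.46 (adjusted p = 0.287), and without Western-diet control mouse 6 -0.65 (adjusted p = 0.0318). It was the only P450 gene called for E171 under any alternative by the probe that stands for it. That mouse was left out because its Cyp2c55 level stood apart as the lowest of its group. Its removal had to enlarge this difference, so the call is a description.

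On the normal diet the smallest unadjusted p-values among these probes were those of Cyp2j6 at -0.19, Cyp2b10 at 1.60 by its first probe and Cyp2b9 at 1.73, each with an adjusted p of 0.999. Averaged over diets they were those of Cyp3a25 at 0.29 (adjusted p = 0.285), Cyp3a57 at 0.28 (adjusted p = 0.333) and Cyp2u1 at -0.30 (adjusted p = 0.412). That Cyp2u1 value came from the repeat-bearing probe. The other Cyp2u1 probes gave 0.18 and 0.18, of the other sign (limma adjusted p = 0.476 and 0.606 over 35777 probes). The probes of Cyp2u1 thus disagreed on the sign, and no direction for E171 is read from them. For the difference of the E171 effect between diets the smallest unadjusted p-values were those of Cyp2c40, Cyp2d9 and Cyp2c50. Cyp2c40 was at -0.50 (adjusted p = 0.925), Cyp2d9 at 0.61 (adjusted p = 0.932) and Cyp2c50 at 0.90 (adjusted p = 0.956).

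A missed threshold does not show that levels were alike, and the intervals give what these 8 mice per group could resolve. For E171 within 1 diet the half-width of the 95% interval was 0.14 to 1.97 over the 53 genes, with a median of 0.34. The interval lay wholly within 0.5 of 0 for 23 genes on the Western diet and 29 on the normal diet, and within 1 of 0 for 45 and 49 in the same order. The Cyp2b genes had the widest intervals.

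**Figure D5:**
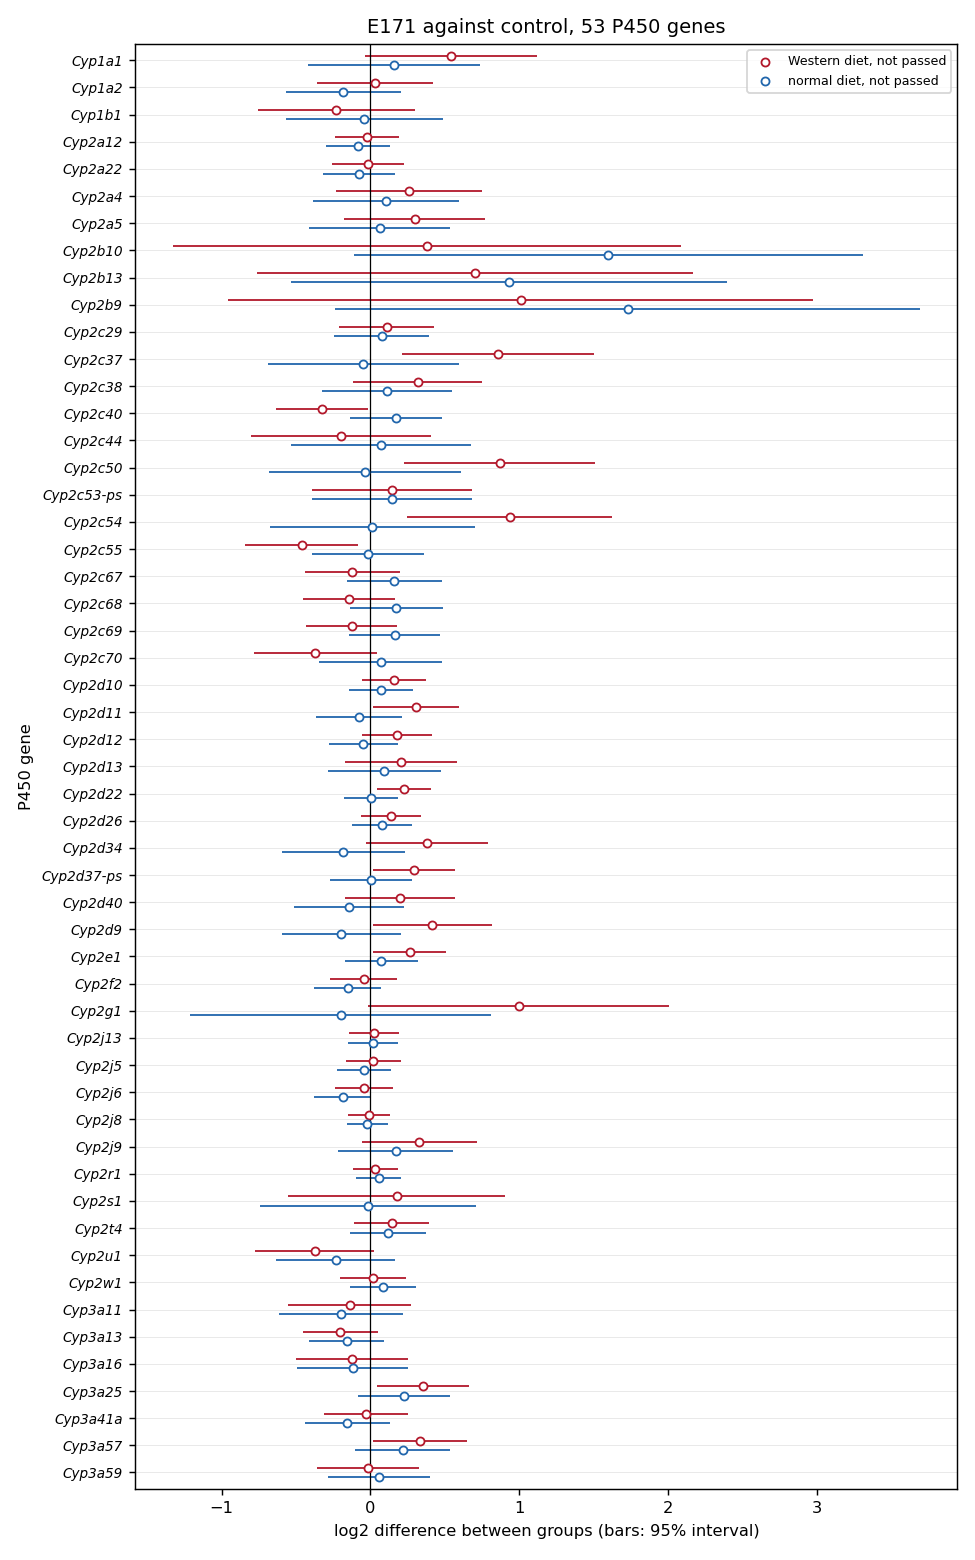
Differences between E171 and control mice (x axis, log2, with 95% intervals) for the 53 tested P450 genes (y axis), on the Western diet (red) and the normal diet (blue). All points are open, since none passed an adjusted p of 0.05, and the Cyp2b genes have the widest intervals.

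Regulators of the clock and of its output drive daily cycles of several P450 genes, and the time of day of sampling is not given in the labels. Of 6 tested, Dbp and Tef were higher and Nfil3 and Arntl lower in both diet comparisons, and Hlf was lower in control mice. For E171, 1 of the 6 passed on the Western diet, where 0.385% of all genes did, and 0 on the normal diet. Averaged over diets 1 was higher, Dbp, and 1 lower, Nfil3, where 0.372% of all genes passed. Nfil3, a repressor, was the 1 that passed on the Western diet. Its log2 levels were 1.52, 1.73 and 2.08 in Western-diet E171 mice and 2.34, 2.71 and 3.59 in Western-diet control mice, a difference of -1.10 (SE 0.19, adjusted p = 0.00528). Those groups did not overlap. The part of time of day in the P450 differences was not tested.

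Members that were not tested were near background everywhere, with 1 exception. Cyp2b19, Cyp2b23, Cyp2c39, Cyp2c66, Cyp2j11 and Cyp3a44 had probes well above background on 0 or 1 arrays of any group. Cyp2c65, an intestinal relative of Cyp2c55, was above it on 3 of 8 arrays of Western-diet E171 mice and 5 of 8 of Western-diet control mice, and on 0 of 8 in each normal-diet group. Cyp2j7, Cyp2j12 and Cyp3a41b were not analysed here.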

How the data were processed

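Liver RNA was labelled with Cy3 and hybridised to Agilent one-colour arrays, 1 per mouse, per the labels' protocols. Per the submitters' processing notes Agilent Feature Extraction 10.10.1.1 made the deposited scanner files, with limma named for later steps. Per the file headers the processed signal in them is a linear intensity after background correction. A deposited table of log2 values for 36695 probes correlates with the log2 processed signal at 0.989 or more per array, with column medians of 7.12 to 7.18. It served as an alternative. How the authors normalized and centred those log2 values is not given in the sources used here.

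Control spots and outlier spots (42 to 91 per array) were left out, log2 intensities were averaged over spots of a probe, and the array's 75th percentile (175 to 342 intensity units) was subtracted. Probes were assigned to genes through RefSeq accessions, then symbols and synonyms, and under the file's name where none matched. P450 members are printed under their file names. A group mean model without a block was fitted to all 32 arrays with limma 3.58.1 in R 4.3.3 (package data.table, version 1.17.8), with two-sided tests and Benjamini-Hochberg adjustment at 0.05. The precision is limited by 8 arrays per group. Slide and scan coincide, and slide was tried as a block. Alternatives changed background correction, scaling, filter, block, array weights, probe choice and the groups in the fit, and mice that stood apart were left out after their levels had been seen. The pipeline was tested on simulated data.

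Members and gene lists were chosen with earlier results of these data known. Named were the 10 largest rises and falls that passed in each diet comparison, the P450 genes that passed for E171 or else the 3 with the smallest unadjusted p, members of the lists and genes whose probes disagree. Cyp2c55 without 1 mouse and the second probes of Cyp2b10 and Cyp2j9 were described after their values had been seen. Promoter and gene records are from RefSeq, build GRCm38.p6, aligned with gaps in Biopython 1.88 (match 1, mismatch -1, gap opening -3, extension -1, free end gaps).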

Additional observations from a re-analysis of the deposited data

Results flagged for a closer look

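In 212 groups of 8 mice (53 genes in 4 groups), 5 values stood apart from the rest of their group by Dixon's criterion, while chance gives about 10.6. Cyp1b1 was highest in Western-diet control mouse 3, at -0.17, with the next value at -1.03. Cyp2c55 was lowest in Western-diet control mouse 6, at -2.46, with the next at -1.29. In Western-diet E171 mouse 3, Cyp2d10 was lowest at 8.03 (next 8.50) and Cyp2d26 lowest at 8.58 (next 8.93). Cyp2d26 was also highest in normal-diet E171 mouse 6, at 9.31, with the next at 9.08. All are log2 levels.

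Cyp2c65, left out of the tests by the filter, was well above background on 3 of 8 arrays of Western-diet E171 mice and 5 of 8 of Western-diet control mice, and on 0 of 8 in each normal-diet group.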

How the results depend on the processing

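Over all alternatives the P450 genes called numbered 12 to 16 higher and 17 to 26 lower for the diet in E171 mice, and 14 to 15 higher and 23 to 29 lower in control mice, with no called gene changing sign. By the probes that stand for genes, no P450 gene passed for E171 under any of them except Cyp2c55. It made the count of lower genes on the Western diet range from 0 to 1 over the mice left out, being 1 without Western-diet control mouse 6. That mouse was left out for its low Cyp2c55 level. Of all genes called for E171 on the Western diet, 39.3% were higher in the deposited table, against 56% with the 75th percentile and 73.2% with only those groups in the fit. Without Western-diet E171 mouse 3 the diet calls in E171 mice numbered 12 higher and 18 lower.

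For the relation of Cyp2d9 across Western-diet control mice, where none passed, the sign of r turned. With Cyp2b9 it was 0.0837 with normexp, 0.0172 with quantile normalization and 0.0789 in the deposited table. With Cyp2b13 it was 0.0987 with normexp and 0.0135 in the deposited table. With Cyp3a41a it was -0.583 with quantile normalization, -0.00872 with the percentile over probes above background on all arrays and -0.523 in the deposited table. The cause was not tested.

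Replicate numbers are shared between groups. Deviations of same-numbered mice had a median r of 0.0686 (from -0.298 to 0.571 over 48 pairs), against -0.018 over 336 other pairs. Over all genes, E171 on the Western diet gave 94 higher and 79 lower with replicate number as a block, against 51 and 40 without it. Averaged over diets these were 84 and 66, against 45 and 43. With this block 0 P450 genes were called for E171. Whether same-numbered mice belong together was not tested further. The P450 diet calls with the replicate block were 13 higher and 23 lower in E171 mice. There Cyp2b10 was lost (adjusted p = 0.0541), and Cyp2j6 and Cyp3a13 were gained. In control mice the calls were 15 higher and 28 lower. Of 78 called diet differences, 7 moved by over 1.5 times with normexp (those of Cyp1b1, Cyp2b13 and Cyp2c53-ps in both comparisons and Cyp2c55 in control mice), 13 with quantile normalization and 19 in the deposited table, and 0 under the other alternatives. Signal over background limits what Cyp2b13 and the second Cyp2b10 probe can show, and both gave smaller diet differences with normexp.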
